A study of Austrofundulus limnaeus and Nothobranchius furzeri and Aphyosemion australe with 30 samples.

Results

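In the African turquoise killifish, 479 of 60359 consensus peaks of open chromatin (0.794%) had their highest accessibility in developing embryos. They are called Dev-highest peaks here. They were selected on the values themselves: both Dev libraries exceeded all 7 other libraries, and the mean of Dev on the log2(normalized reads + 1) scale was at least 1 above each of the 3 other stage means. The margin of a peak is its Dev mean minus the highest of those 3 means. All differences between Dev and another stage are therefore descriptions of the selection and were not used as evidence.

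Killifish of seasonal ponds can suspend their development as embryos in a state called diapause, in which the heart slows and growth stops, and embryos of the same clutch can instead go on developing. ATAC-seq maps open chromatin with the transposase Tn5, which inserts adapters where DNA is not wrapped in nucleosomes. Open regions are where transcription factors can reach promoters and distal enhancers. An open region is not by itself evidence that a gene nearby is transcribed.

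The 9 turquoise killifish libraries came from wild-type, untreated whole embryos, dissected and pooled, with several embryos in each library. The 2 Dev libraries came from embryos that had gone on to develop, whose hearts beat more than 60 times a minute per the labels; the study's methods give a lower limit for this stage. The 2 Pre-Dia libraries came from younger embryos that still carried Kupffer's vesicle, a transient organ of somitogenesis. Per the study's methods, those came from first clutches of young parents, most of which skip diapause. The 2 Dia 6d libraries came from embryos in diapause for 6 days and the 3 Dia 1m libraries from embryos in diapause for 1 month. Whole bodies were used, so that fewer cells of a type and less open chromatin per cell cannot be told apart. No cell type or gene was assigned to a peak here, because the deposited table gives positions only and no gene annotation was used. The study itself linked peaks to the gene closest to them.

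The Dev libraries were the deepest, with 6.24 and 5.18 M reads (megareads) in peaks, against 2.26 to 3.94 M in the 7 other libraries. Depth and stage therefore moved together. The median of all peaks was nearly level across libraries, between 32.2 and 34.5 normalized reads. On the first principal component over all peaks (31.1% of the variance), Dia 1m replicates 3 and 2 stood apart from the other diapause libraries. They lay on opposite sides. Replicate 3 scored -20.0 and lay next to Dev replicate 1 at -21.0, and replicate 2 scored 142. The 2 Dia 6d libraries and Dia 1m replicate 1 scored between 56.9 and 63.0. Labels that call samples replicates do not say whether clutches differed, so that p-values measure the spread between these libraries only.

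In the Dev-highest peaks, the median was 58.0 normalized reads in Dev replicate 1 and 49.0 in Dev replicate 2. It was 21.0 and 19.5 in the Pre-Dia libraries, 21.5 and 17.9 in Dia 6d, and 16.8, 16.2 and 15.4 in Dia 1m. The peaks stood above the ordinary consensus peak in Dev and below it at every other stage. Medians of the stage means on the log2(normalized reads + 1) scale were 5.74 in Dev, 4.32 in Pre-Dia, 4.32 in Dia 6d and 4.05 in Dia 1m, where all peaks had medians of 5.04, 5.08, 5.05 and 5.01.

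**Figure D1:**
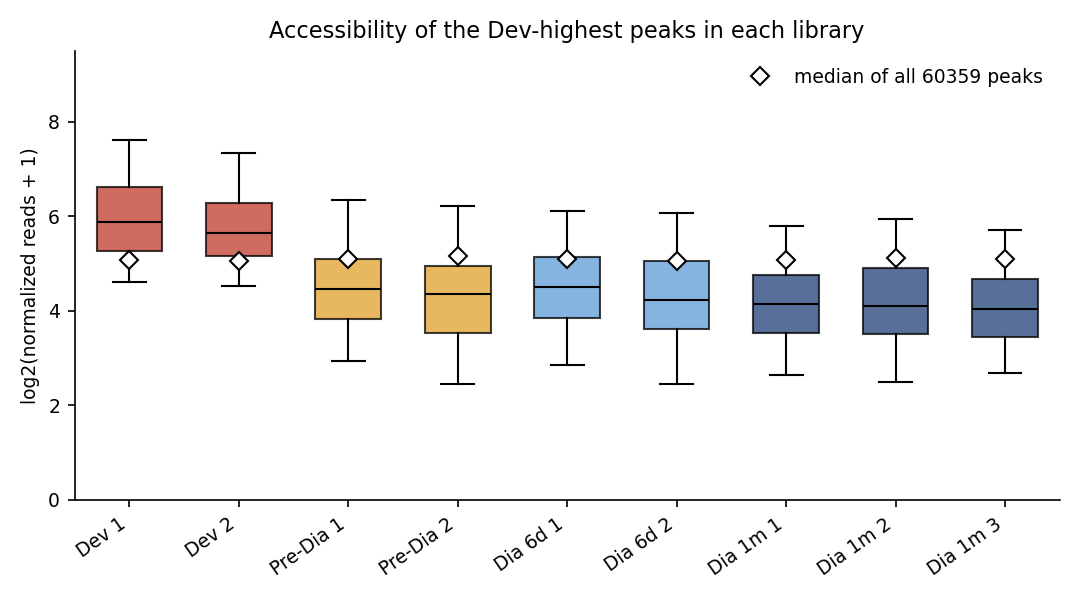
Values of the 479 Dev-highest peaks in each of the 9 libraries, as log2(normalized reads + 1). Boxes give the quartiles and median, whiskers the 5th to 95th percentile, and diamonds the median of all 60359 peaks. Member medians lie above the diamonds in both Dev libraries and below them in the 7 others. By selection, both Dev values of a peak exceed its 7 others, and its Dev mean is at least 1 above each other stage mean. The position of members against the diamonds was thus also shaped by the rule.

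Most of the peaks still held more than 1 read in every library of the other stages. Signal outside peaks was not measured, so that open and closed cannot be told apart at low counts. The median read count of the members, before normalization, was 99 and 73 in Dev, 19 and 13 in Pre-Dia, 24 and 16 in Dia 6d, and 16, 14 and 17 in Dia 1m. Every member had at least 26 reads in Dev replicate 1 and 21 in Dev replicate 2. The smallest value in any library was 1 read, the floor of the deposited table, and 27 members (5.64%) had a library outside Dev at that floor. A larger group of 87 members (18.2%) had at least 1 library outside Dev with 3 reads or fewer, and folds of those peaks are imprecise.

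Most margins were close to the selection limit. The median margin was 1.16, the upper quartile 1.33 and the largest 2.75. Only 68 members had a margin of at least 1.5, and 11 had one of at least 2. The members were thus mainly peaks with graded differences, with a short tail of peaks that were far higher in Dev.

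The largest margin belonged to peak_37505 (NC_029661.1:39441658-39442075, genome build Nfu_20140520). It had 108 and 96.6 normalized reads in Dev, against 14.4 and 13.5 in Pre-Dia, 15.3 and 13.4 in Dia 6d, and 13.6, 9.27 and 15.4 in Dia 1m. The 7 libraries outside Dev were flat, with a mean of 13.5 ± 2.05 normalized reads (SD, n = 7), and the Dev mean was 7.55-fold higher than that mean. Its margin was 2.75.

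The second, peak_28359 (NC_029657.1:41516379-41516849), had 111 and 58.4 normalized reads in Dev, against 7.73 and 10.5 in Pre-Dia, 16.1 and 8.94 in Dia 6d, and 8.39, 12.7 and 10.8 in Dia 1m. Its Dev replicates differed more than those of peak_37505, and both still lay far above every other library. The Dev mean was 7.86-fold higher than the mean of the 7 others, with a margin of 2.64.

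The next 3 peaks by margin were small ones that rested on few reads. Peak_13201 (NC_029652.1:46262252-46262562) had 24.6 and 24.2 normalized reads in Dev, against 7.73 and 1.5 in Pre-Dia, 8.97 and 1.12 in Dia 6d, and 3.15, 3.48 and 0.904 in Dia 1m. Peak_10291 (NC_029651.1:63124233-63124396) had 29.9 and 29.5 in Dev, and its 7 other libraries ranged between 1.12 and 9.94. Peak_37613 (NC_029661.1:42726425-42726572) had 17.0 and 20.8 in Dev, and its 7 other libraries ranged between 1.12 and 5.25. In each of these, Pre-Dia replicate 2 and Dia 6d replicate 2 were at the floor of 1 read, so that their margins of 2.44, 2.34 and 2.32 are less certain than those of the deeper peaks.

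Better covered peaks of similar margin followed. Peak_46749 (NC_029667.1:19964681-19965318) had 248 and 194 normalized reads in Dev, against 32.0 and 46.5 in Pre-Dia, 71.8 and 27.9 in Dia 6d, and 19.9, 29.0 and 35.2 in Dia 1m. Dia 6d replicate 1 was the nearest library to Dev, well below the lower Dev replicate. Peak_19683 (NC_029654.1:44121676-44122122) had 121 and 90.6 in Dev, against 27.6 and 15.0 in Pre-Dia, 32.3 and 12.3 in Dia 6d, and 23.1, 15.1 and 19.0 in Dia 1m. The margins were 2.26 and 2.30. Peak_37200 (margin 2.03), peak_26952 (2.02) and peak_28343 (1.99) completed the 12 largest with peak_44597 (2.16) and peak_44595 (2.07), which lie together.

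**Figure D2:**
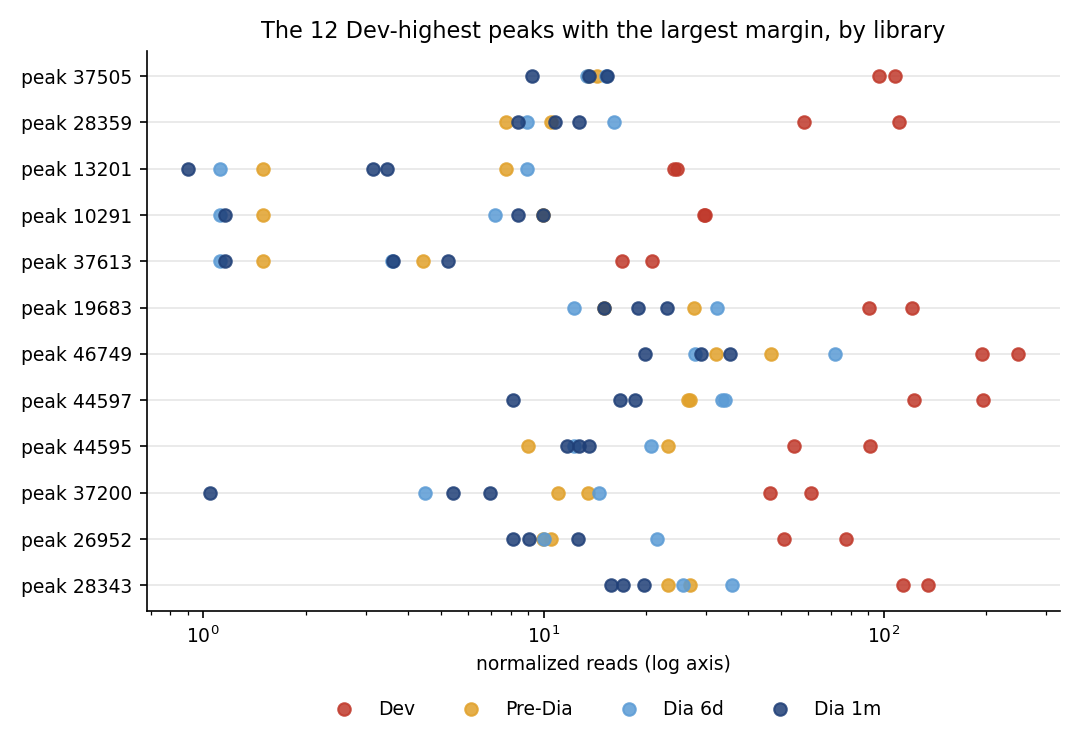
Normalized reads (log axis) of the 12 Dev-highest peaks with the largest margin, 1 row per peak and 1 point per library, coloured by stage. The 2 Dev points lie to the right of the 7 others in every row, by selection, and points near 1 mark libraries at the floor of 1 read.

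The strongest members in Dev had smaller margins. Peak_44874 (NC_029666.1:365544-366164) was the highest, with 446 and 406 normalized reads in Dev, against 141 and 107 in Pre-Dia, 113 and 78.2 in Dia 6d, and 54.6, 119 and 49.7 in Dia 1m. Its margin was 1.78, whereas the next 5 by Dev level had margins between 1.05 and 1.27. These were peak_3088, peak_20827, peak_4570, peak_37531 and peak_10654, with Dev means between 303 and 344 normalized reads. In them the mean of the 7 other libraries lay between 116 and 135 normalized reads, above the median of all peaks, so that they were open at every stage and more open in Dev.

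At the limit itself, the values of members and excluded peaks were alike. Peak_13427 and peak_39899 were just inside, both with a margin of 1.00. The first had 36.9 and 33.6 normalized reads in Dev and between 7.23 and 19.7 in the other libraries, and the second had 242 and 232 in Dev and between 69.6 and 130.1 elsewhere. Peak_35043 and peak_32189 were just outside, also with margins of 1.00 after rounding. They had 66.2 and 63.1, and 35.2 and 30.9, normalized reads in Dev. A total of 4868 peaks (8.07% of all) had both Dev libraries above all others, and 4389 of them had a margin under 1.

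A limma fit over all 60359 peaks used the contrasts that chose the members. Its counts depend on the size of the differences, their spread and the adjustment over all peaks. At a Benjamini-Hochberg adjusted p under 0.05, 12 members were higher in Dev than in Pre-Dia (background 0.0762% of all peaks), 42 were higher than in Dia 6d (0.28%) and 288 were higher than in Dia 1m (4.48%). None was lower. The counts only describe the selection. They moved with single libraries, and so did the shares over all peaks. Without Dia 1m replicate 3, which stands apart, they were 217, 196 and 315, beside 4.67%, 2.43% and 7.14% of all peaks. Without Dia 1m replicate 2, which stands apart on the other side, they were 168, 153 and 326, beside 2.71%, 1.71% and 9.59% of all peaks. Without Dev replicate 1 they were 0, 1 and 31, and without Dev replicate 2 they were 0, 1 and 74, beside at most 0.479% of all peaks. The count against Pre-Dia was also 0 without Pre-Dia replicate 2, either Dia 6d library or Dia 1m replicate 1. In these fits 0% of all peaks passed in either direction. Leaving out a Dia 6d library gave 9 (replicate 1, 0.053% of all peaks) or 0 (replicate 2, 0.00331%) against Dia 6d. Leaving out Dia 1m replicate 1 gave 25 against Dia 6d (0.131% of all peaks) and 182 against Dia 1m (1.91%).

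Each Dev library was next used as a replicate that the choice had not seen. The choice still required the 7 other libraries to be low, so that a high share in the unseen replicate is partly fixed by it, and the share over all peaks is not the value without a difference. When peaks were chosen with Dev replicate 2 alone, 468 passed the same rule, and Dev replicate 1 exceeded all 7 other libraries in 413 of them (88.2%). Over all peaks Dev replicate 1 did so in 16.3%. When they were chosen with Dev replicate 1 alone, 898 passed, and Dev replicate 2 exceeded all 7 others in 743 (82.7%), against 12.1% of all peaks.

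Fewer peaks kept the margin. Of the 468 peaks chosen on Dev replicate 2, 264 (56.4%) also had a margin of at least 1 in Dev replicate 1. Of the 898 chosen on Dev replicate 1, the same 264 (29.4%) also had it in Dev replicate 2. The unseen replicate had a median margin of 1.08 in the first choice and 0.81 in the second, against -0.35 and -0.37 over all peaks. Both choices share the 7 other libraries, so they are not separate experiments. Dev replicate 1, the deeper one, was the higher Dev library in 343 members (71.6%) and in 52.6% of all peaks.

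Because depth moved with stage, the reads of every library were also thinned at random to the total of the shallowest, 2.26 M, an alternative added after the values were seen. On log2(reads + 1), the rule then chose 439 peaks, 320 of them members. On the same reads the rule chose 901 peaks for Pre-Dia, 160 for Dia 6d and 134 for Dia 1m. Without thinning it chose 571, 116 and 201, so that the order of the 2 diapause times turned. The thinned reads were not normalized as the deposited values are. Depth and normalization thus changed together, and their parts cannot be told apart.

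The values of Pre-Dia, Dia 6d and Dia 1m in the members were also shaped by the rule, which capped every one of them and held 3 Dia 1m libraries, against 2 of each other stage, below Dev. They are given as descriptions, and unselected peaks are no reference for them. The Dia 6d mean was close to the Pre-Dia mean, with a median difference of 0.01 on the log2 scale (quartiles -0.31 and 0.33). The Dia 1m mean was lower than the Pre-Dia mean by a median difference of -0.25, and lower than the Dia 6d mean by a median difference of -0.26. All peaks together had medians of -0.01, 0.01 and 0.01 for these 3 differences.

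Counted by peak, Dia 1m was the lowest of the 3 stages in 260 members (54.3%), against 30.2% of all peaks. The shares over all peaks are printed beside the counts but are no reference for them, since the rule shaped the members' values. No further closing by 1 month can be read from them. Dia 6d was the highest of the 3 in 214 members (44.7%) and Pre-Dia in 199 (41.5%), against 29.99% and 39.0% of all peaks. Every Dia 1m library lay below both Pre-Dia libraries in 111 members (23.2%, against 18.9% of all peaks) and below both Dia 6d libraries in 108 members (22.5%, against 12.1%). Without Dia 1m replicate 3, which stood apart, the median differences of Dia 1m were -0.21 from Pre-Dia and -0.24 from Dia 6d. Without Dia 1m replicate 2, which stood apart on the other side, they were -0.27 and -0.29. Without Dia 6d replicate 2 the median difference from Dia 6d was -0.40, and without Pre-Dia replicate 2 that from Pre-Dia was -0.41.

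Few single members passed the threshold among these stages, and their p-values are given as descriptions only, since the rule had used the values. In the limma fit with Benjamini-Hochberg adjustment over all peaks, 1 member was lower in Dia 6d than in Pre-Dia (1.22% of all peaks were) and none was higher (2.84% of all peaks). In Dia 1m against Pre-Dia, 8 members were lower (3.56% of all peaks) and none was higher (4.72%). In Dia 1m against Dia 6d, 1 member was lower (0.0282%) and none was higher (0%). By the unadjusted p under 0.05 in either direction, limma gave 23, 53 and 43 members in these 3 contrasts (4.80%, 11.1% and 8.98%), against 20.4%, 23.8% and 8.21% of all peaks. edgeR and DESeq2 on the recovered reads gave no higher member in any of them either, though DESeq2 left an adjusted p for only 240, 340 and 167 members.

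Peak_22096 (NC_029655.1:22195045-22195483) was the member lower at 1 month than at 6 days of diapause. It had 11.5, 5.79 and 11.7 normalized reads in Dia 1m, against 39.5 and 62.6 in Dia 6d. No library of the pair overlapped, and the log2 difference was -2.30 ± 0.43 (SE, limma adjusted p = 0.0393). Pre-Dia lay between them at 23.2 and 21.0, and Dev was at 132 and 101. The count in this contrast was 0 after leaving out any 1 of the Pre-Dia, Dev or Dia 6d libraries or Dia 1m replicate 1. At most 0.00497% of all peaks passed in these fits. The count was 7 without Dia 1m replicate 2 and 5 without Dia 1m replicate 3. These were 1.46% and 1.04% of members lower, against 1.46% and 0.406% of all peaks. Quantile normalization and a fit of these 2 stages alone also gave 0, beside 0.00166% and 0% of all peaks.

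Peak_3089 (NC_029649.1:70120725-70121055) was lower in both diapause stages than in Pre-Dia. It had 14.4 and 5.59 normalized reads in Dia 6d and 10.5, 5.79 and 13.6 in Dia 1m, against 29.8 and 48.0 in Pre-Dia. The groups did not overlap. The log2 difference was -1.95 ± 0.57 for Dia 6d (SE, limma adjusted p = 0.0477) and -1.90 ± 0.52 for Dia 1m (SE, limma adjusted p = 0.0224). Its neighbour peak_3088, which ends within a few kilobases of it, was among the strongest members in Dev.

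Peak_37532 (NC_029661.1:40632964-40633268) had 12.6, 13.9 and 12.7 normalized reads in Dia 1m, against 39.8 and 48.0 in Pre-Dia. The log2 difference was -1.67 ± 0.42 (SE, limma adjusted p = 0.0146). Its values in Dia 6d were 28.7 and 12.3 and those in Dev 107 and 96.0, so that only 1 Dia 6d library reached down to the level of Dia 1m. The adjoining peak_37531 also passed, at -1.12 ± 0.35 (SE, limma adjusted p = 0.0438).

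Peak_50530, on the unplaced scaffold NW_015443999.1 (127278-128155), was split within Dia 1m. It had 15.7, 11.6 and 73.2 normalized reads in Dia 1m, against 70.7 and 78.1 in Pre-Dia. The third Dia 1m library was the one that lay next to Dev replicate 1 on the first principal component. Its value here lay within the range of Pre-Dia. The log2 difference was -1.59 ± 0.48 (SE, limma adjusted p = 0.0363). The other 4 members past the threshold, peak_48081, peak_18366, peak_3973 and peak_3831, had differences between -1.36 and -1.15.

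These calls depended on single libraries. The count of 8 in Dia 1m against Pre-Dia was 0 without Pre-Dia replicate 2, where 0.326% of all peaks were lower. It was between 1 and 3 without Dia 1m replicate 1, either Dev or either Dia 6d library, beside 1.35% to 2.44% of all peaks. It was 16 without Dia 1m replicate 2 (3.34% of members, against 5.45% of all peaks) and 20 without Dia 1m replicate 3 (4.18%, against 8.03%). A fit of the 2 stages alone gave 0, where 1.00% of all peaks were lower. Without Pre-Dia replicate 1 the count turned round to 6 members higher in Dia 1m (1.25%, against 1.54% of all peaks) and none lower. The 1 call in Dia 6d against Pre-Dia was lost without Pre-Dia replicate 2, either Dev or Dia 6d library or Dia 1m replicate 1. In these fits 0.0315% to 0.673% of all peaks were lower. Without Dia 1m replicate 2 or 3 the counts in that contrast were 7 and 11, in both directions, beside 11.2% and 13.6% of all peaks. Without Pre-Dia replicate 1 it was 1 member higher in Dia 6d, beside 0.858% of all peaks.

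The members were narrower than other peaks. Their median width was 366 bp, against 421 bp for all peaks and 523 bp for the peaks that had both Dev libraries above all others but missed the margin. Stronger peaks are wider in this table, and the members were strong in Dev, so that widths were also set side by side within 10 equal bins of the Dev mean. In each of the 9 bins that held members, their median was below that of all peaks. Examples are 491 bp against 659 bp in bin 9 (105 members) and 285 bp against 431 bp in bin 6 (67 members). Bins 2 and 3 held only 2 and 8 members. Within a bin the rule still held members lower at the 3 other stages. The bins thus do not match strength over all libraries, and the narrower width is partly set by the selection. Narrower peaks were not particular to Dev. The same rule applied to each other stage chose 571 peaks for Pre-Dia, 116 for Dia 6d and 201 for Dia 1m, with median widths of 309, 320.5 and 369 bp.

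Members often had other members near them. Of the 479, 118 (24.6%) had another member within 50 kb and 75 (15.7%) had one within 10 kb. Of the 3030 peaks within 50 kb of a member, 3.89% were members, against 0.794% of all peaks, and within 10 kb the share was 9.39% of 799. For the peaks chosen by the same rule in Pre-Dia (0.946% of all peaks), the share was 3.16% within 50 kb, close to that of Dev, and 3.75% within 10 kb, and 17.2% of them had another within 50 kb. The shares within 50 kb and 10 kb were 0.648% and 1.46% in Dia 6d (0.192% of all peaks) and 0.85% and 1.73% in Dia 1m (0.333%). Nearby peaks can be parts of 1 open region, so that they were not treated as replicates.

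The 2 densest runs each held 6 members within 50 kb. The first spanned 16.4 kb (NC_029657.1:41508173-41524606), and all 6 of its consensus peaks, peak_28357 to peak_28362, were members. Their margins were between 1.03 and 2.64, with peak_28359 in the middle as the highest. The peak_28358 next to it had 125 and 68.4 normalized reads in Dev, against 19.9 and 31.5 in Pre-Dia, 22.4 and 14.5 in Dia 6d, and 13.6, 15.1 and 6.33 in Dia 1m. At the far end, peak_28362 had 115 and 64.4 in Dev, against 21.0 and 27.0 in Pre-Dia, 22.4 and 13.4 in Dia 6d, and 19.9, 26.6 and 27.1 in Dia 1m. Dev replicate 1 was the higher Dev library in 5 of the 6, and peak_28361 was the exception, at 32.2 and 46.3.

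The run was cut at its outermost members, so that a drop beyond them is partly set by the selection. No consensus peak lay within 50 kb upstream of it. The next peak downstream, peak_28363, had 14.1 and 6.71 normalized reads in Dev, against 14.4 and 4.50 in Pre-Dia, 7.18 and 7.82 in Dia 6d, and 23.1, 18.5 and 9.04 in Dia 1m. Its Dev values lay within the range of the others, with a margin of -0.64. A further large-margin member, peak_28343, lay on the same sequence at 41171849-41172247, with 135 and 114 in Dev and 15.7 to 35.9 in the other 7 libraries.

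The second run spanned 37.3 kb (NC_029665.1:32326312-32363575) and held 8 peaks. All 8 had both Dev libraries above every other library, and 6 were members, with margins between 1.17 and 2.16. Peak_44597 had 196 and 123 normalized reads in Dev, against 26.5 and 27.0 in Pre-Dia, 34.1 and 33.5 in Dia 6d, and 16.8, 18.5 and 8.13 in Dia 1m. Peak_44594 had 205 and 168 in Dev, against 51.9 and 57.1 in Pre-Dia, 38.6 and 33.5 in Dia 6d, and 29.4, 24.3 and 30.7 in Dia 1m. In both of these the 3 Dia 1m libraries were the lowest. Only peak_44596 and peak_44599, with margins of 0.82 and 0.92, missed the limit. Peak_44599 was the highest of the run in Dev, at 255 and 207, and missed it through Dia 6d, at 121 and 122.

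Upstream of that run, which was also cut at its outermost members, the difference was again small. No consensus peak lay within 50 kb downstream of it. The 6 upstream peaks within 50 kb had margins between -0.41 and 0.54. Peak_44588, for example, had 84.4 and 59.1 normalized reads in Dev, against 50.8 and 69.1 in Pre-Dia, 68.2 and 68.2 in Dia 6d, and 72.4, 91.5 and 51.5 in Dia 1m.

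**Figure D3:**
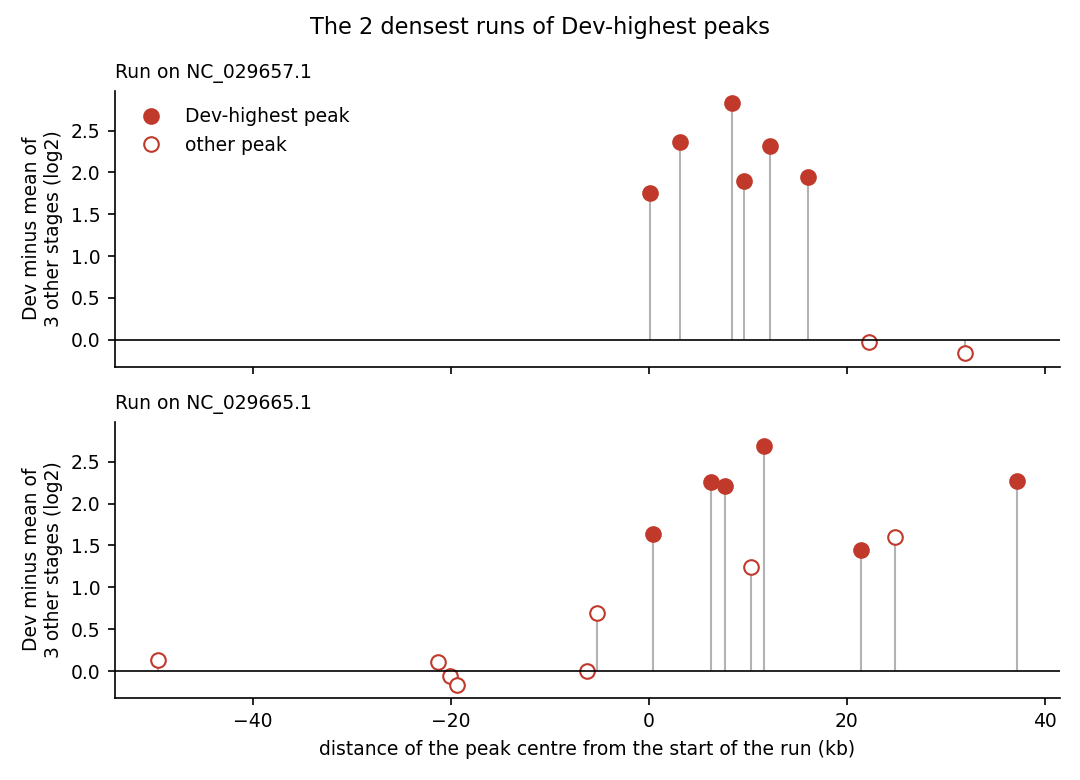
Difference between the Dev mean and the mean of the 3 other stage means (log2) for each consensus peak in and within 50 kb of the 2 densest runs, against the distance of the peak centre from the start of the run. Filled points are Dev-highest peaks and open points are other peaks. Peaks of the runs lie between 1.25 and 2.83, and peaks outside them between -0.17 and 0.69. The runs were cut at their outermost members, so that this contrast is partly set by the selection.

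Other groups were smaller, and they were picked out after their values were seen. Members no more than 50 kb from the next formed 34 pairs, 8 groups of 3, 1 group of 4, 2 of 5 and the 2 runs of 6, and 361 members stood alone. The group of 4, peak_4569 to peak_4572 (NC_029650.1:3015390-3025636), again took in every consensus peak of its span and held peak_4570, one of the strongest members in Dev, at 364 and 309 normalized reads. The groups of 5 lay at NC_029659.1:11290693-11323041, where 5 of 7 peaks were members, and at NC_029661.1:32059608-32132403, where 5 of 12 were.

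Peaks outside the set were also higher in Dev where they lay near a member. The rule put them outside the set on their own values, and they come from the libraries used for the choice. The nearest of them can be parts of the same open region as a member. Within 1 kb of a member, the median difference between Dev and the mean of the 3 other stages was 0.66 on the log2 scale (61 peaks), and 98.4% of them were above 0. It was 0.39 at 2 to 5 kb (220 peaks), 0.28 at 20 to 50 kb (1616 peaks) and 0.18 at 100 to 200 kb (3098 peaks). Farther than 200 kb, or on a sequence without a member, it was -0.01 (51877 peaks), where 49.6% were above 0. Only 39 of 3298 unplaced scaffolds held a member, so that this bin takes in all peaks of the rest. Peaks outside the set had a median of -0.17 on unplaced scaffolds and medians between -0.02 and 0.24 on the placed sequences. The farthest bin thus mixes distance with placement, and their parts were not tested.

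**Figure D4:**
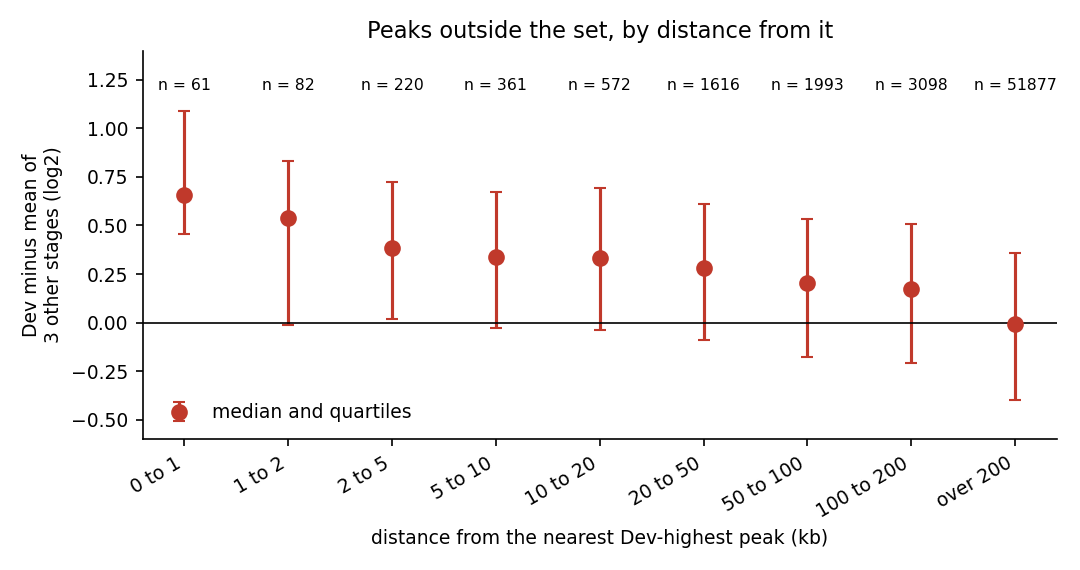
Difference between the Dev mean and the mean of the 3 other stage means (log2) for peaks that are not Dev-highest, in bins of distance from the nearest Dev-highest peak. Points are medians, bars reach to the quartiles, and the number of peaks stands above each bin. Medians are 0.66 in the nearest bin and -0.01 in the farthest. The farthest bin also holds all peaks on sequences without a member, which include most unplaced scaffolds.

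A like pattern held around the peaks of the other stages, so it was not particular to Dev. Peaks within 1 kb of a peak chosen for Pre-Dia differed from the other stages by a median of 0.69 in favour of Pre-Dia, and those around peaks chosen for Dia 1m by 0.64 in favour of Dia 1m. For Dia 6d the value was 0.40, from 13 peaks.

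Along the genome, members were uneven. The 19 sequences with names starting NC_ held 46951 peaks and 434 members (0.924%), and 3298 unplaced scaffolds held 13408 peaks and 45 members (0.336%). Unplaced scaffolds thus took 9.39% of the members and 22.2% of all peaks. They took 27.0% of the peaks chosen for Pre-Dia, 1.72% of those for Dia 6d and 42.8% of those for Dia 1m, so that the stage sets differed widely in this respect.

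The sequence NC_029661.1 held the largest share, with 40 of its 1659 peaks as members (2.41%). The other 18 NC_ sequences had shares between 0.471% and 1.21%, and outside NC_029661.1 the share was 0.748%. By the same rule NC_029661.1 held 9 peaks for Pre-Dia, 6 for Dia 6d and 2 for Dia 1m, which are 1.58%, 5.17% and 0.995% of those sets, against 8.35% of the Dev-highest peaks and 2.75% of all peaks. It carried peak_37505, the member with the largest margin, as well as peak_37613, peak_37200 and peak_37531.

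Its members were concentrated in the distal part. From 30 Mb to its end, 27 of 645 peaks were members (4.19%), whereas 13 of 1014 were in the first 30 Mb, and none of 258 in the first 10 Mb. The peaks there that are not members were also higher in Dev. The stretch was picked for its share of members in these same libraries, so that this is no separate support. Relative to each peak's mean over 9 libraries, the median of these 618 peaks was 0.41 and 0.25 in Dev on the log2 scale, against -0.01 and 0.07 in Pre-Dia, -0.09 and -0.05 in Dia 6d, and -0.13, 0.03 and -0.26 in Dia 1m. Both Dev libraries lay above all 7 others. This did not hold for the 1001 peaks outside the set in the first 30 Mb. Their medians were 0.20 and 0.04 in Dev, against -0.16 and -0.10 in Pre-Dia, 0.14 and 0.13 in Dia 6d, and 0.01, 0.19 and -0.19 in Dia 1m. Over all peaks the same medians were 0.06 and 0.02 in Dev and between -0.03 and 0.04 elsewhere.

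In 10-Mb windows of the NC_ sequences with at least 100 peaks (114 windows), the median share of members was 0.808%, and 14 windows had none. The 2 windows from 30 to 50 Mb of NC_029661.1 had the highest shares, 4.33% and 4.04%, with a median difference of 0.43 and 0.41 between Dev and the other stages in the peaks that are not members. The third, NC_029650.1 up to 10 Mb, had 11 members among 281 peaks (3.91%). That window holds the group of 4 with peak_4570. A high difference outside the set did not always go with a high share of members. In NC_029655.1 from 10 to 20 Mb the difference was 0.436, the highest of all these windows, with 1.53% members. In NC_029649.1 from 80 to 90 Mb it was 0.371, with 1.12% members.

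**Figure D5:**
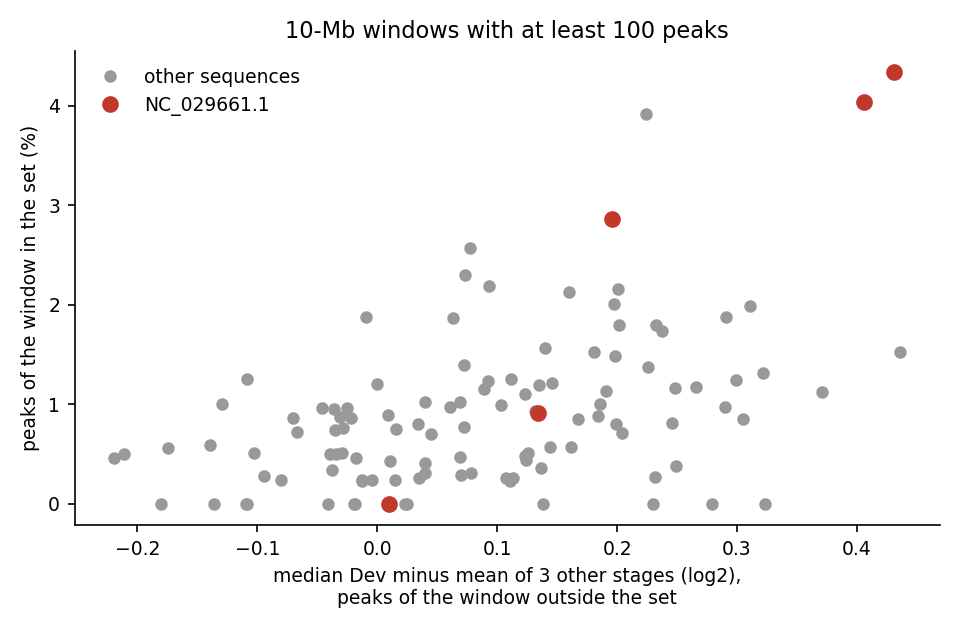
Share of peaks that are Dev-highest in each 10-Mb window with at least 100 peaks, against the median difference between Dev and the mean of the 3 other stages (log2) in the window's other peaks. Windows of NC_029661.1 are in red. Its windows from 30 to 50 Mb lie highest, at 4.33% and 4.04%. A window of NC_029655.1 lies farthest right, at a difference of 0.436 and a share of 1.53%.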

How the data were processed

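The authors trimmed reads with Trim Galore 0.4.1, aligned them with Bowtie2 2.2.5 to Nfu_20140520, filtered duplicates (Picard 2.22.1) and multimapping reads (SAMtools 1.5), shifted them for Tn5 with deepTools 3.2.1 and called peaks with MACS2 2.1.1.20160309. The deposited table is named RPKM, but its signal values are whole reads in each peak, scaled by a library factor and not by width (100% whole within 0.01 reads), with a floor of 1 read. They are called normalized reads here. The count of reads in peaks gave the depth.

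Members and lists were chosen with earlier results of these data known. limma 3.58.1 (R 4.3.3) was fitted to log2(value + 1) of all 9 libraries, with 4 groups, a trended prior and Benjamini-Hochberg adjustment over 60359 peaks. RPKM had been assumed in planning; the same test was kept. edgeR 4.0.16 and DESeq2 1.42.0 on recovered reads were alternatives. Named peaks were the 12 with the largest margin, the 6 highest in Dev, 2 on each side of the limit, up to 3 per contrast and direction past the threshold, and those of the densest runs; all others were chosen after their values were seen. Libraries with equal replicate numbers did not deviate together (correlations of deviations between -0.23 and 0.04). That cannot exclude shared clutches or batches, which the labels do not give. In the South American table, 4 value columns of no mapped sample were not used. Genes, sequences and motifs under the peaks were not analysed here.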

Additional observations from a re-analysis of the deposited data

How the results depend on the processing

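The number of Dev-highest peaks (479) was 2741 at a margin of 0.5, 68 at 1.5 and 11 at 2, and 284 with a pseudocount of 5. Between 436 and 898 peaks were chosen when 1 library was left out, and the other alternatives gave 439 to 509. The peaks themselves changed more than their number. Of the 479 members, 302 were still chosen without Dev replicate 1, 355 without Pre-Dia replicate 2 and 379 without Dia 6d replicate 2. The most, 460, were kept without Dia 1m replicate 2. A replicate held out gave 88.2% (Dev replicate 1) and 82.7% (Dev replicate 2), and the share of members among neighbours was 3.89% within 50 kb and 9.39% within 10 kb.

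The replicate block gave 186 members for Dev against Pre-Dia (12 without it) and 171 for Dev against Dia 6d (42). It gave 7 for Dia 6d against Pre-Dia (1), 17 for Dia 1m against Pre-Dia (8) and 3 for Dia 1m against Dia 6d (1). Only Dia 1m has a replicate 3, so that the block also gave this library a term of its own. The median differences of Dia 1m were then those without this library, -0.21 from Pre-Dia and -0.24 from Dia 6d. The labels do not say whether equal numbers mark shared clutches. Fitted on the 2 groups alone, the same 5 counts were 350, 376, 8, 0 and 0. In either direction, the shares over all peaks in these 5 contrasts were 4.81%, 4.70%, 12.3%, 19.2% and 0.462% with the block and 10.1%, 10.5%, 17.3%, 2.63% and 0% on the 2 groups alone. For Dev against Pre-Dia a pseudocount of 0.5 gave 7 (0.063% of all peaks were higher), of 5 gave 25 (0.131%) and edgeR 19 (0.0961%). DESeq2 gave 43 of the 113 members left with an adjusted p, beside 467 of 22912 peaks higher. For Dev against Dia 6d edgeR gave 66 (0.494% of all peaks). DESeq2 gave 78 of 240 members there, beside 517 of 38125 peaks higher. Quantile normalization gave 4 lower for Dia 6d against Pre-Dia (2.73% of all peaks) and 0 for Dia 1m against Dia 6d (0.00166%). In the latter contrast DESeq2 gave 2 lower of 167 members, beside 99 of 28763 peaks lower. Leaving out 1 library gave 0 to 217 for Dev against Pre-Dia, 0 to 196 for Dev against Dia 6d, 31 to 326 for Dev against Dia 1m, 0 to 11 for Dia 6d against Pre-Dia, 0 to 20 for Dia 1m against Pre-Dia and 0 to 7 for Dia 1m against Dia 6d. Without Pre-Dia replicate 1 the direction turned, with 1 member higher in Dia 6d and 6 higher in Dia 1m than in Pre-Dia. The cause of these moves was not tested. Of 420 margins of the 35 named peaks under alternatives, 398 moved by less than the spread within stages and none turned negative. Many could not move, because a library of a stage that does not set the margin often leaves it unchanged. The spread was each peak's own, which lets noisy peaks move far. The margin of peak_10291 fell from 2.34 to 1.49 without Pre-Dia replicate 2, within its spread of 1.23. The count of 398 is thus partly fixed in advance. The margin stayed at least 1 under every alternative in 23 of the 35. The lowest margin of a named member was 0.56, in peak_28357 without Dev replicate 1.

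Depth limits peaks with few reads, and the alternatives on base composition windows and promoter distance were not run.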

Other observations

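In the South American killifish, whose table was made separately and has no shared coordinates, the same rule chose 277 of 68977 peaks (0.402%) for Dev. The median margin was 1.16 and the largest 2.68. The median width of those peaks was 384 bp, against 379 bp for all peaks of that species, so that they were not narrower there. The peaks chosen for the other stages of that species were narrower, at 307.5 bp for Pre-Dia, 276 bp for Dia 6d and 300 bp for Dia 1m. The rule chose 144 peaks for Pre-Dia, 51 for Dia 6d and 345 for Dia 1m in that species. Every library of a stage had to exceed all others, and Dia 6d had more libraries there than each other stage. The counts thus mix stage with the number of libraries and do not rank the stages. No peak of this table was matched to a turquoise killifish peak.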
